A study of Mus musculus with 31 samples.

Results

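The 7 genes of the insulin-like growth factor (IGF) binding proteins, Igfbp1 to Igfbp7, and the 3 genes of the IGF mRNA-binding proteins, Igf2bp1 to Igf2bp3, were examined in neonatal mouse pancreas. They were chosen by gene name, and all 10 were found in both deposited tables, each of which lists 38283 genes. RNA of sorted pancreatic cells was sequenced. The donors were C57BL/6 pups at postnatal day 2. YFP-positive cells formed the mesenchymal fraction and YFP-negative cells the non-mesenchymal fraction, which holds acinar, endocrine, ductal and other cells.

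Mice of 2 models were compared, and every group carried Nkx3.2-Cre, a recombinase driven by a gene of gut and pancreatic mesenchyme. In the first model the controls were H19DMD+/+; Nkx3.2+/Cre and the mutants H19DMDfl/+; Nkx3.2+/Cre. H19DMD is the imprinting control region upstream of H19, and the series describes this deletion as overexpression of Igf2 in mesenchyme. In the second model the controls were Igf2+/+; Nkx3.2Cre/+ and the mutants Igf2+/fl; Nkx3.2Cre/+, a mesenchymal deletion of Igf2. The labels name no YFP allele and do not say whether libraries came from single or pooled pancreata, so p-values measure the spread between these samples. Of 31 samples, 21 in 6 groups were used: in the H19DMD model, each fraction had 3 controls and 4 mutants, and in the Igf2 model the non-mesenchymal fraction had 4 controls and 3 mutants. The other 10, including the mesenchymal cells of the Igf2 model, were not analysed here.

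Values are FPKM, fragments scaled by transcript length and by the mapped fragments of the library, so levels of different genes can be set side by side within a library. A library had 17476 to 19352 genes above 0 in the H19DMD model and 19199 to 20918 in the Igf2 model. The absolute depth is unknown. Each model had its own table, and its library names share a prefix that the other model's lack. Model and library set therefore cannot be told apart, and no test crosses the tables. The sorted fractions matched their labels: the summed level of 10 mesenchymal markers was 4528 to 5930 FPKM in mesenchymal libraries and 149 to 412 FPKM in non-mesenchymal ones. Of these, Nkx3-2 and Barx1 were listed at 0 in every H19DMD non-mesenchymal control, and Nkx3-2, the gene that drives the Cre, was low in control mesenchyme too (0.44 ± 0.443 FPKM, SD, n = 3). H19 was 2437, 2446 and 2454 FPKM in control mesenchyme and 635, 766, 565 and 835 FPKM in mutant mesenchyme, without overlap. The log2 difference was -1.82 ± 0.19 (SE, limma adjusted p = 0.0458). This call was lost without any 1 of the 7 libraries, at adjusted p = 0.0618 to 0.143, while the difference stayed between -1.91 and -1.72.

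IGF-binding proteins are secreted proteins that hold IGF1 and IGF2 outside the cell. They prolong the life of the ligand, keep it from its receptor, or release it when a protease cuts them, and IGFBP7 is a distant relative with low affinity for IGFs that is laid down around blood vessels. The IGF2BP proteins are unrelated to them in structure: they are cytoplasmic RNA-binding proteins, named for binding Igf2 transcripts, that are abundant in embryonic tissues and affect the stability, transport and translation of their targets. Both families thus sit next to Igf2, the growth factor altered in these mice, at the level of the protein and of the mRNA respectively.

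Several of the genes are close neighbours on GRCm38 (GENCODE M21). Igfbp2 (chr1:72824503-72852474, plus strand) and Igfbp5 (chr1:72857932-72874884, minus strand) lie tail to tail, 5457 bases apart. Igfbp1 (chr11:7197782-7202546, plus strand) and Igfbp3 (chr11:7206086-7213923, minus strand) have the same arrangement, 3539 bases apart. Igfbp4 lies at chr11:99041244-99054392 (plus strand), Igfbp6 at chr15:102144362-102149511 (plus strand) and Igfbp7 at chr5:77349240-77408041 (minus strand). Igf2bp1 lies at chr11:95957163-96005940, Igf2bp2 at chr16:22059009-22163299 and Igf2bp3 at chr6:49085223-49214957, all on the minus strand. All 10 are annotated as protein-coding. Igfbp7 overlaps Polr2b at its 3′ end and the antisense gene Gm34648, Igf2bp3 overlaps Malsu1 and the antisense gene Gm18010, and Igf2bp1 hosts Mir3063 and overlaps the antisense gene Gm29202. Strand use in counting is not given in the sources used here, so reads from these overlaps could not be assigned to 1 gene with certainty.

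Because most of the 10 genes were higher in mesenchyme together, the 250 bases before their RefSeq starts were read from RefSeq (GRCm38.p6). Windows were found for 9 genes, with 2 for Igfbp2. Windows are shown for the 4 genes most abundant in control mesenchyme whose window holds no annotated exon, 5′ to 3′ on the gene's strand, with matches to TATAAA and GGGCGG on either strand in capitals.
Igfbp7, chr5:77408046-77408295, minus strand: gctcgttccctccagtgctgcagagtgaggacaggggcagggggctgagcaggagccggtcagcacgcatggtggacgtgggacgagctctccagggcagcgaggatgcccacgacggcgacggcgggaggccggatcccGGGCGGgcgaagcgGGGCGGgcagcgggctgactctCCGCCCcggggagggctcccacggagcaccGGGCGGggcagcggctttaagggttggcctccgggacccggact
Igfbp4, chr11:99040994-99041243, plus strand: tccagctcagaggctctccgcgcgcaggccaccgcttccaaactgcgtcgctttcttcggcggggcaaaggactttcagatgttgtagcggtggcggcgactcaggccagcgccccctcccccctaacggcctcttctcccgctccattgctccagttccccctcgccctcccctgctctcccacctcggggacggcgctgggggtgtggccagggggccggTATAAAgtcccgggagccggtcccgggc
Igfbp3, chr11:7213924-7214173, minus strand: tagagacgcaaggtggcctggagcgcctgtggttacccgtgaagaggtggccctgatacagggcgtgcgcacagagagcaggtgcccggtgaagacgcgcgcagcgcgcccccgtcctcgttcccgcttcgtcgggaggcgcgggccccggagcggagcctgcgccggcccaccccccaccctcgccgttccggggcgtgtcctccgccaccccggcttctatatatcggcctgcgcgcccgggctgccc
Igf2bp2, chr16:22163300-22163549, minus strand: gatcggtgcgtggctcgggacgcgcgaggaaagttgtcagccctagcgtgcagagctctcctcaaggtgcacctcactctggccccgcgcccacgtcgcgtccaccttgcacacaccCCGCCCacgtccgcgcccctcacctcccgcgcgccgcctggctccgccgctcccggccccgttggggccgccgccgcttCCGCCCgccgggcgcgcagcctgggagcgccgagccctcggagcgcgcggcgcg
Igfbp7 had 4 matches to GGGCGG, the GC box recognised by Sp1-type factors, and Igf2bp2 had 2. TATAAA, the core of the TATA box, stood 28 bases before the start of Igfbp4. The Igfbp3 window held neither of these exact sequences, and variants of them were not counted. Among 32851 RefSeq promoter windows of the same length, 32.7% held GGGCGG and 12.4% held TATAAA. The 4 windows shown were rich in G and C, beside a median of 52.4% over all windows. They held 74.0% for Igfbp7, 69.2% for Igfbp4, 73.2% for Igfbp3 and 77.2% for Igf2bp2. The windows not shown held less, at 67.2% and 56.4% for Igfbp2, 58.8% for Igfbp5 and 49.6% for Igfbp6. Those of Igf2bp3 and Igfbp1 held 60.4% and 53.2%. Igfbp6 was thus under the median although it was higher in mesenchyme, and Igf2bp3, which was not called, was above it. A match describes the sequence and not the use of a site.

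In control mesenchyme the binding proteins spanned a wide range of levels. Igfbp7 was highest at 297 ± 9.05 FPKM (SD, n = 3), and its libraries did not overlap those of any other of the 10 genes. Igfbp4, an inhibitory binding protein that the protease pappalysin cuts, followed at 154 ± 25.8 FPKM, and Igfbp5, which binds matrix, at 153 ± 18.8 FPKM; these 2 overlapped. Igfbp3, the main carrier of IGFs in serum, stood below both at 80.0 ± 6.61 FPKM. Igfbp6, which prefers IGF2 as a ligand, was at 19.7 ± 8.68 FPKM and Igfbp2 at 13.01 ± 8.76 FPKM, and these overlapped. Igfbp1, known from liver, was listed at 0 in all 7 mesenchymal libraries.

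Among the RNA-binding proteins of control mesenchyme, Igf2bp2 was highest at 34.8 ± 5.66 FPKM. Igf2bp3 reached 10.6 ± 2.69 FPKM and Igf2bp1 6.01 ± 1.45 FPKM (SD, n = 3), and the 3 genes did not overlap. Among the 20644 genes above 0 in these libraries with a locus of at least 200 bases, Igfbp7 ranked 236 from the top, Igfbp4 488, Igfbp5 495 and Igfbp3 981. Igf2bp2 ranked 2397.

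Non-mesenchymal cells had another order. In the H19DMD controls Igfbp7 was again highest at 95.7 ± 34.9 FPKM, followed by Igf2bp2 at 16.5 ± 4.53, Igf2bp3 at 10.8 ± 3.67 and Igfbp5 at 10.6 ± 2.91 FPKM, where each neighbouring pair below Igfbp7 overlapped. Igfbp4 (5.78 ± 1.24 FPKM) and Igfbp3 (2.06 ± 0.359 FPKM) stood below these without overlap. Igfbp2, Igfbp6 and Igf2bp1 were near or under 1 FPKM and overlapped one another. The non-mesenchymal controls of the Igf2 model, in the other table, had Igfbp7 at 102 ± 75.0 FPKM (SD, n = 4), Igf2bp2 at 27.0 ± 12.98, Igf2bp3 at 15.2 ± 2.17, Igfbp4 at 13.1 ± 5.72 and Igfbp5 at 12.7 ± 1.07 FPKM. By mean level, Igf2bp2 and Igf2bp3 were thus the next genes after Igfbp7 in all 4 non-mesenchymal groups. Libraries of Igf2bp2 and Igf2bp3 overlapped in each of these groups. Igf2bp3 also overlapped the gene after it, Igfbp5 in the H19DMD model and Igfbp4 in the Igf2 model. Igfbp7 did not overlap the next gene in any of the 6 groups.

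**Figure D1:**
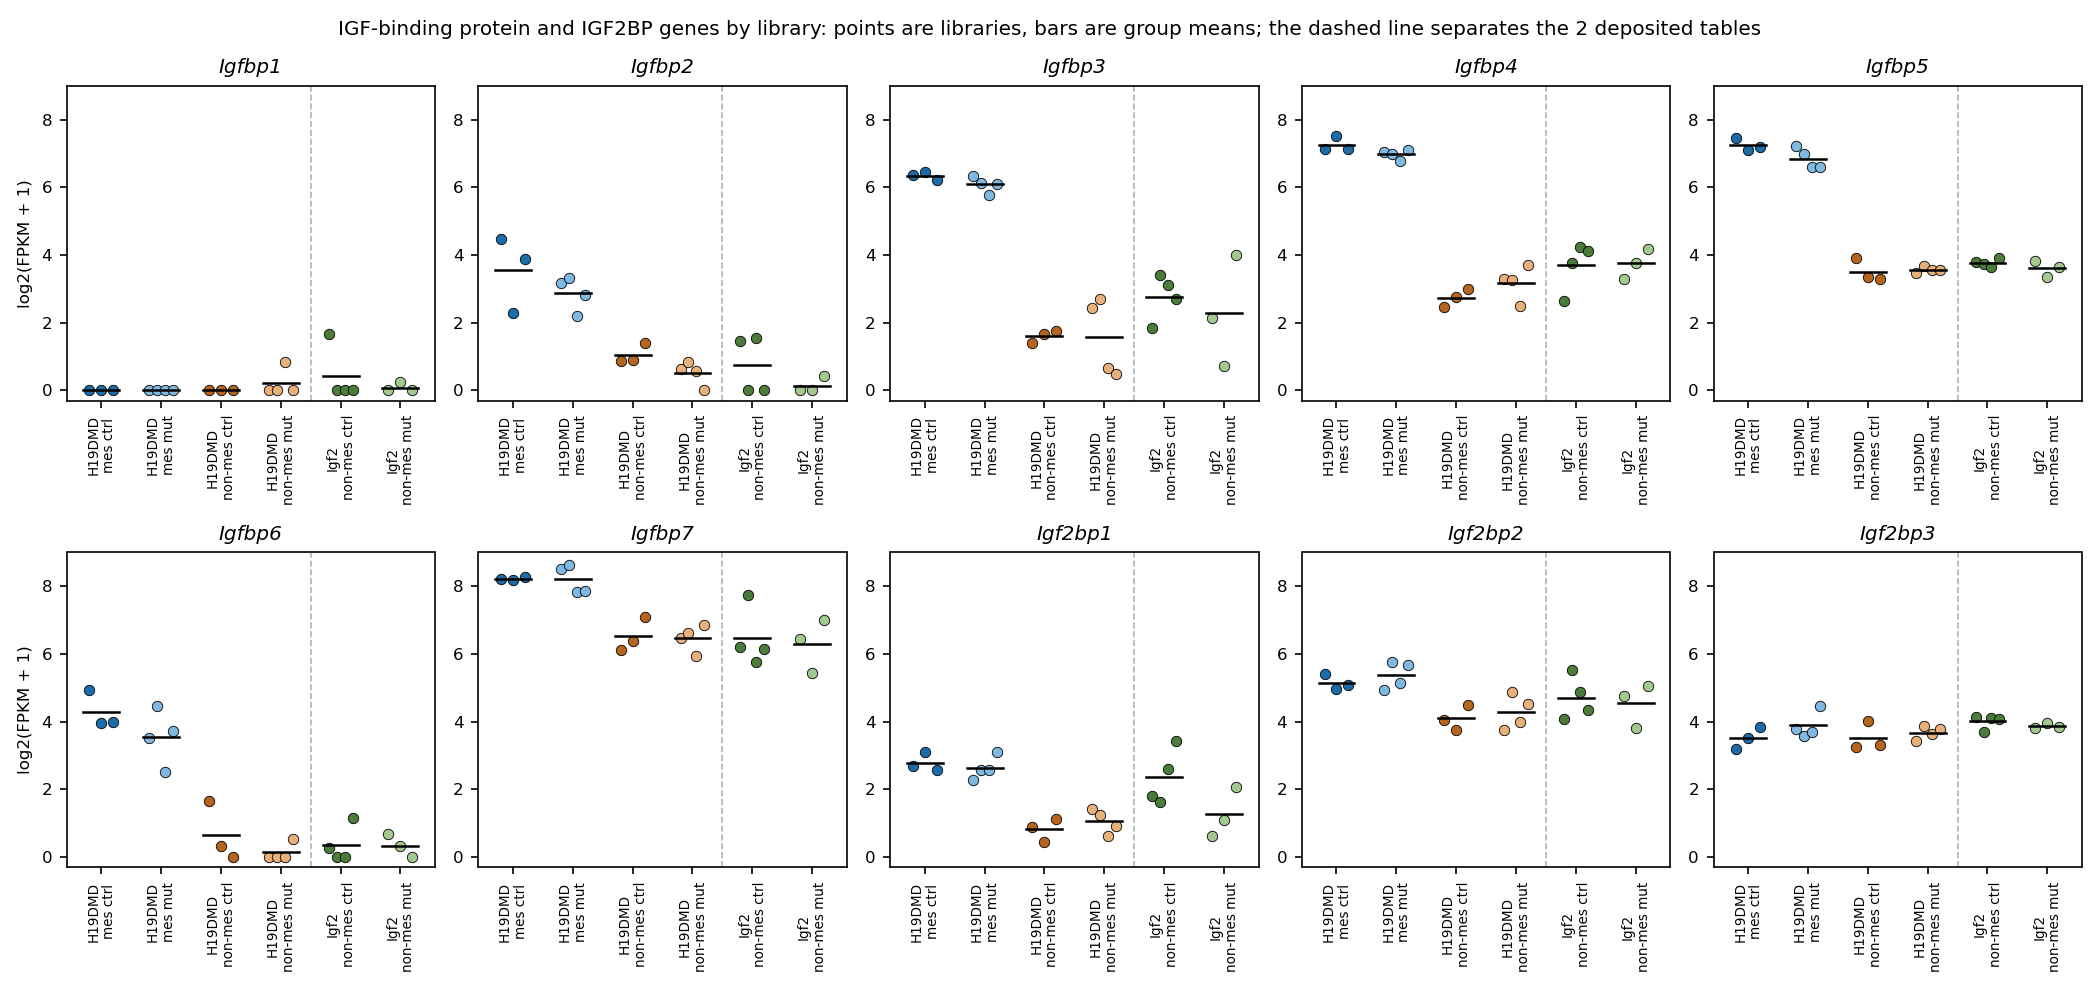
Level of each of the 10 genes in each library, as log2(FPKM + 1), by group (mes, mesenchymal; non-mes, non-mesenchymal; ctrl, control; mut, mutant), with group means as bars. Over all libraries, Igfbp2 to Igfbp7 separate the fractions and the IGF2BP genes overlap between them, Igf2bp1 and Igf2bp2 only through the Igf2 model. Igfbp1 is at 0 in 18 of 21 libraries.

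The make-up of the IGFBP pool differed between fractions. The 7 binding proteins summed to 742, 715 and 693 FPKM in control mesenchyme and to 92.1, 101 and 155 FPKM in control non-mesenchymal cells. Igfbp7 made up 41.5 ± 2.35% of the sum in control mesenchyme and 81.4 ± 6.22% in control non-mesenchymal cells (SD, n = 3 each). Igfbp3, Igfbp4 and Igfbp5 took 11.2 ± 0.790%, 21.6 ± 3.69% and 21.3 ± 2.06% in mesenchyme. In non-mesenchymal cells they took 1.82 ± 0.302%, 5.06 ± 0.581% and 9.96 ± 4.83%. Library ranges of each of these 4 shares did not overlap between the fractions. In the Igf2 model, Igfbp7 held 70.8 ± 12.2% of the sum in control (n = 4) and 72.0 ± 6.29% in mutant (n = 3) non-mesenchymal cells.

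**Figure D2:**
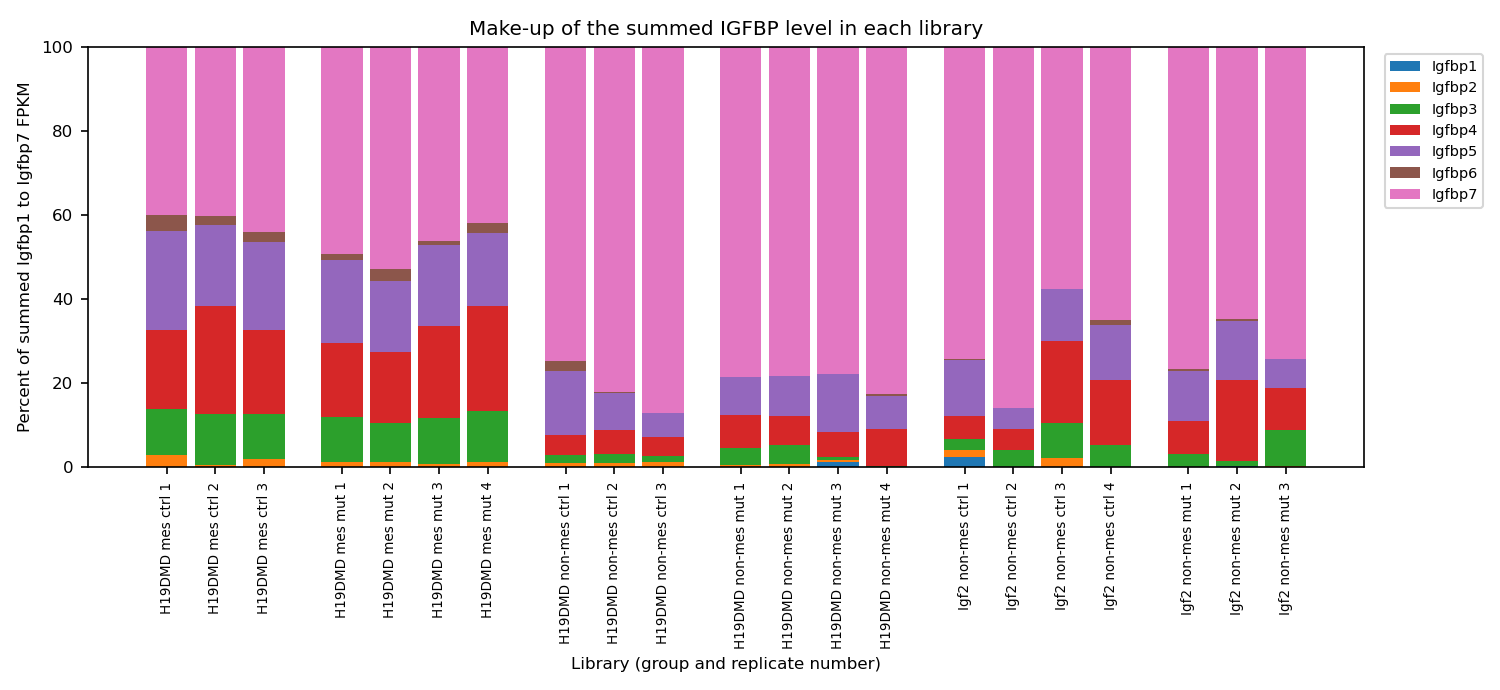
Percent of the summed FPKM of Igfbp1 to Igfbp7 that each gene contributes, 1 bar per library. Igfbp7 fills 39.9 to 52.8% of the 7 mesenchymal bars and 57.7 to 87.2% of the 14 non-mesenchymal bars.

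In the IGF2BP pool, Igf2bp2 made up 67.4 ± 6.94% of the 3-gene sum in control mesenchyme and 58.5 ± 11.99% in control non-mesenchymal cells, which overlapped. Igf2bp1 held 11.8 ± 3.48% in mesenchyme and 2.79 ± 1.36% in non-mesenchymal cells, without overlap.

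The first comparison asked which of the genes differ between mesenchymal and non-mesenchymal cells. In the H19DMD controls, 8 of the 9 genes tested were higher in mesenchyme and none was lower (limma on log2(FPKM + 1), adjusted p under 0.05, 3 against 3 libraries). Over all 16732 genes tested, 22.6% differed, 12.4% higher and 10.3% lower. Igfbp1 was not tested because its mean lay under 1 FPKM. The median difference was 3.69 on the log2 scale over 6 binding proteins and 1.05 over 3 RNA-binding proteins, beside 0.08 over all genes. The 8 genes called did not overlap between the fractions, as was the case for 39.9% of all genes, 22.4% with higher mesenchyme. In bulk RNA, fewer cells of a type and less RNA per cell cannot be told apart.

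Igfbp3 stood at 80.9, 86.1 and 73.0 FPKM in control mesenchyme and at 1.67, 2.16 and 2.37 FPKM in control non-mesenchymal cells. All mesenchymal libraries lay far above the others. The ratio of means was 38.8, with a log2 difference of 4.73 ± 0.18 (SE, limma adjusted p = 8.33e-05). Igfbp4 stood at 140, 184 and 139 FPKM in mesenchyme and 4.55, 5.76 and 7.04 FPKM outside it. This gap was almost as wide, with a ratio of 26.7 and a log2 difference of 4.52 ± 0.22 (adjusted p = 0.00012).

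Igfbp5 was 174, 138 and 146 FPKM in mesenchyme against 13.98, 9.12 and 8.78 FPKM, a 14.4-fold difference (log2 difference 3.75 ± 0.23, adjusted p = 0.00024). Its neighbour Igfbp2 was 21.4, 3.90 and 13.7 FPKM against 0.844, 0.852 and 1.62 FPKM. The mesenchymal libraries of Igfbp2 were spread widely but did not overlap the others (log2 difference 2.50 ± 0.58, adjusted p = 0.028). That call was lost without mesenchymal control 1 or 3 or any single non-mesenchymal control, at adjusted p = 0.0627 to 0.0905. Igfbp6 was 29.7, 14.4 and 15.03 FPKM in mesenchyme and 2.12, 0.25 and 0 FPKM outside it (log2 difference 3.64 ± 0.52, adjusted p = 0.0046).

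Igfbp7 had the smallest contrast of the binding proteins tested. It was 296, 288 and 306 FPKM in mesenchyme, the tightest group of values among these genes, and 68.9, 83.1 and 135 FPKM outside it. The ratio was 3.10 and the log2 difference 1.68 ± 0.27 (limma adjusted p = 0.0075). Endothelial markers moved the same way: the summed level of 7 of them was 85.3 to 94.6 FPKM in control mesenchyme and 17.0 to 42.5 FPKM in control non-mesenchymal cells. Of these 7, 3 were higher in mesenchyme, beside 12.4% of all genes, and none was lower, beside 10.3%. None was at 0 in every library of either group, and their part in the Igfbp7 difference was not tested. Markers of other mesenchyme-associated cells stood with the same fraction. The 6 smooth muscle and pericyte markers summed to 476 to 793 FPKM in control mesenchyme and 11.6 to 16.6 FPKM outside it, and the 4 mesothelial markers to 120 to 264 FPKM and 1.67 to 7.91 FPKM. All 6 and all 4 were higher in mesenchyme, beside the same 12.4% of all genes, and their part in the differences of the 8 genes called was not tested.

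Igf2bp1, which binds actin and Myc transcripts among others, was 5.40, 7.66 and 4.97 FPKM in mesenchyme and 0.855, 0.343 and 1.17 FPKM outside it. The fractions did not overlap, and the ratio was 7.61 (log2 difference 1.98 ± 0.29, adjusted p = 0.0055). Igf2bp2 was 41.2, 30.4 and 32.8 FPKM against 15.5, 12.6 and 21.5 FPKM, a ratio of 2.11 (log2 difference 1.05 ± 0.25, adjusted p = 0.0286). Its call was lost without any 1 of the 3 mesenchymal controls or without non-mesenchymal control 1 or 2, at adjusted p = 0.0581 to 0.0887.

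Igf2bp3 was the exception among the genes tested. It stood at 8.06, 10.4 and 13.4 FPKM in mesenchyme and 8.43, 15.05 and 8.9994 FPKM outside it, and the fractions overlapped. The log2 difference was -0.01, with a 95% interval from -0.73 to 0.72 (limma adjusted p = 0.988).

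The same contrast in the H19DMD mutants used other libraries of the same table, 4 against 4. Again 8 of 9 genes tested were higher in mesenchyme and none was lower, beside 28.6% called over 16767 genes, 13.5% higher and 15.1% lower. These 8 genes did not overlap between the fractions, as was the case for 31% of all genes, 14.4% with higher mesenchyme. Igfbp3 was 24.8-fold higher (log2 difference 4.52 ± 0.52), Igfbp4 14.8-fold (3.79 ± 0.25) and Igfbp5 10.7-fold (3.28 ± 0.17). Igfbp7 was 3.40-fold higher (1.75 ± 0.26) and Igf2bp1 4.76-fold (1.58 ± 0.27). Igfbp2 and Igfbp6, each listed at 0 in at least 1 non-mesenchymal library, differed by 2.37 ± 0.31 and 3.42 ± 0.40 on the log2 scale. The adjusted p of these 7 genes lay between 6.36e-06 and 0.003.

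Igf2bp2 was 29.5, 53.7, 34.0 and 50.5 FPKM in mutant mesenchyme and 12.5, 28.1, 14.9 and 22.1 FPKM in mutant non-mesenchymal cells, without overlap. It was 2.16-fold higher (log2 difference 1.09 ± 0.30, limma adjusted p = 0.0276). This call was lost without mesenchymal mutant 2 or 4 or non-mesenchymal mutant 1 or 3, at adjusted p = 0.0676 to 0.0737. Igf2bp3 did not pass the test here either, with a log2 difference of 0.21 and a 95% interval from -0.31 to 0.73 (adjusted p = 0.524).

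**Figure D3:**
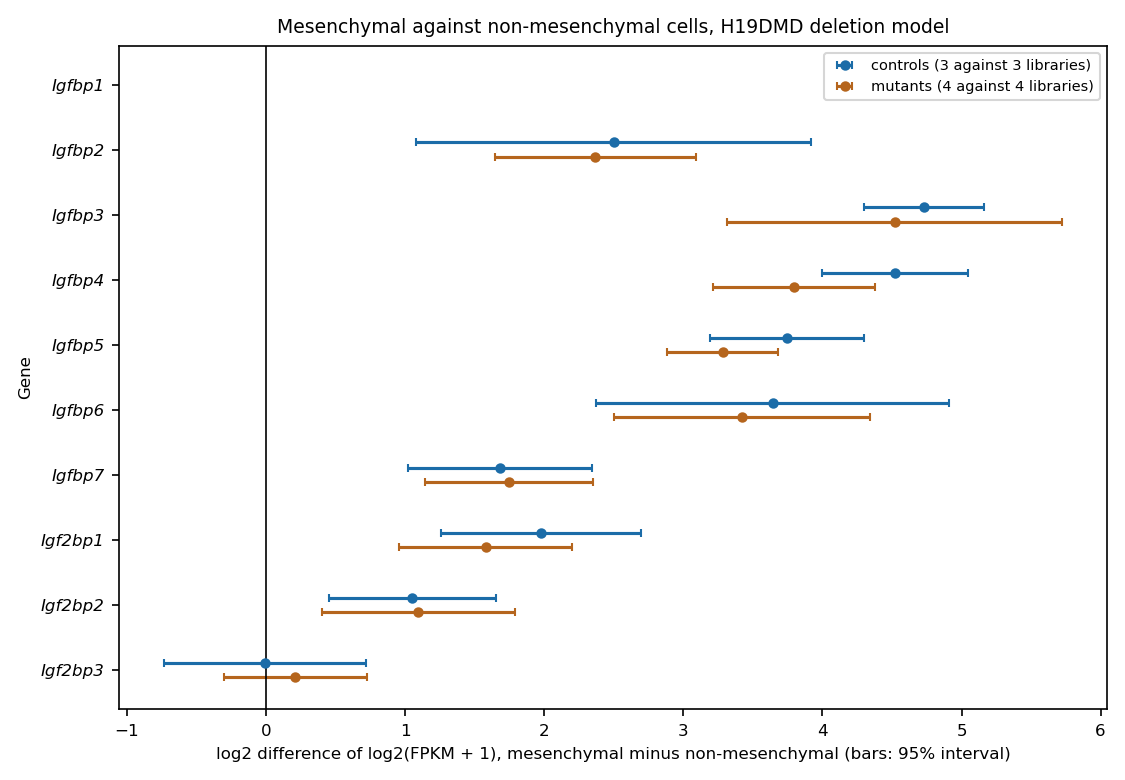
Difference between mesenchymal and non-mesenchymal cells for each gene on the log2(FPKM + 1) scale, in controls and in mutants of the H19DMD model, with 95% intervals from limma. Intervals of 8 genes lie above 0 in both genotypes, that of Igf2bp3 spans 0 in both, and Igfbp1 was not tested.

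The second comparison asked whether deletion of H19DMD in mesenchyme was accompanied by a change in these genes in the mesenchyme itself. None of 9 genes tested passed the threshold in 4 mutant against 3 control libraries (limma), and 0 had an unadjusted p under 0.05. Over all 15856 genes, 0.0694% were called, which is 11 genes, and 755 had an unadjusted p under 0.05. Igf2 itself was 3876, 4024 and 3648 FPKM in controls and 7923, 7467, 6608 and 6162 FPKM in mutants. The groups did not overlap, with a ratio of 1.83 and a log2 difference of 0.87 ± 0.21, but Igf2 did not pass after adjustment either (limma adjusted p = 0.927).

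Igfbp4 was the 1 gene of the 10 whose mesenchymal libraries did not overlap between genotypes, at 131, 126, 108 and 138 FPKM in mutants against 140, 184 and 139 FPKM in controls. The highest mutant library lay just under the lowest control. Its log2 difference was -0.29 ± 0.17 (limma adjusted p = 0.927), and it was -0.15 without control 2. Over all genes, 5.39% did not overlap, and 3.77% did so with lower mutants. Igfbp5 was 148, 126, 95.5 and 97.2 FPKM in mutants against 174, 138 and 146 FPKM in controls (-0.40 ± 0.21, adjusted p = 0.927). Here mutant library 1 reached into the control range.

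The remaining binding proteins overlapped between genotypes. Igfbp3 was 80.1, 68.8, 54.3 and 68.0 FPKM in mutants. Its log2 difference from controls was -0.25 ± 0.17, and -0.14 without mutant 3. Igfbp2 was 7.98, 8.97, 3.63 and 6.06 FPKM (-0.67 ± 0.54) and Igfbp6 10.5, 20.9, 4.67 and 12.3 FPKM (-0.74 ± 0.48). Single libraries decided the size of both differences, neither of which was called. That of Igfbp2 was -0.21 without control 1 and -1.30 without control 2, and that of Igfbp6 was -0.42 without control 1 and -0.39 without mutant 3. Igfbp7 was 367, 392, 229 and 233 FPKM, 2 libraries above all controls and 2 below, with a 95% interval of the log2 difference from -0.58 to 0.57. Endothelial markers summed to 127, 110.2, 81.7 and 74.3 FPKM in mutant mesenchyme, highest in the same 2 libraries as Igfbp7, and their part in its spread was not tested.

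Other cell types of the mesenchymal fraction also varied. The 4 markers of the mesothelium, the cell layer that covers the organ, summed to 106, 131, 83.4 and 102 FPKM in mutants against 264, 129 and 120 FPKM in controls, and the 6 smooth muscle and pericyte markers to 715, 401, 391 and 146 FPKM against 783, 476 and 793 FPKM. The 8 ductal and epithelial markers did not overlap between genotypes, at 39.0, 36.8, 31.7 and 24.2 FPKM in mutants against 86.3, 39.7 and 59.1 FPKM in controls. None of the markers of these 3 lists passed the test, and their part in the IGFBP values was not tested.

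The RNA-binding proteins also overlapped between genotypes in mesenchyme. Igf2bp2 had a 95% interval of the log2 difference from -0.38 to 0.84, Igf2bp3 from -0.28 to 1.03 and Igf2bp1 from -0.78 to 0.46. Adjusted p (limma) lay between 0.927 and 0.999 for all 9 genes tested. The median difference was -0.35 over the 6 binding proteins and 0.23 over the 3 RNA-binding proteins, beside -0.07 over all genes, of which 57.3% were below 0. Mutant library 3 was the lowest of its group for 6 of the 9 genes.

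The 7 binding proteins summed to 744, 742, 496 and 555 FPKM in mutant mesenchyme, which reached from below the controls to their upper end. The ratio of the Igf2 level to this sum was 5.37 ± 0.224 in control mesenchyme (SD, n = 3, range 5.22 to 5.63) and 11.3 ± 1.43 in mutant mesenchyme (n = 4, range 10.1 to 13.3), without overlap. Against Igfbp1 to Igfbp6 alone, leaving out the low-affinity Igfbp7, it was 9.18 ± 0.425 and 21.6 ± 2.35. These are ratios of transcript levels and were given no test, since Igf2 is the gene the model alters.

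In the non-mesenchymal cells of the H19DMD model, 6 genes were tested and none passed (limma, 4 mutant against 3 control libraries), and 0 had an unadjusted p under 0.05. The background was 0.0677% of 16239 genes called, with 868 at an unadjusted p under 0.05. Igfbp4 was 8.83, 8.60, 4.59 and 11.99 FPKM in mutants against 4.55, 5.76 and 7.04 FPKM in controls. The groups overlapped through mutant library 3 (log2 difference 0.44 ± 0.31, adjusted p = 0.894), and the difference was 0.67 without that library and 0.27 without mutant 4. Igfbp5 was 10.1, 11.9, 10.8 and 10.9 FPKM against 13.98, 9.12 and 8.78 FPKM, with a 95% interval from -0.40 to 0.52. Igfbp3 split the mutants into 4.44 and 5.51 FPKM in libraries 1 and 2 and 0.577 and 0.401 FPKM in libraries 3 and 4, on either side of the controls.

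Igfbp7 was 87.9, 96.7, 60.6 and 114 FPKM in these mutants, Igf2bp2 12.5, 28.1, 14.9 and 22.1 FPKM and Igf2bp3 9.72, 13.5, 11.4 and 12.8 FPKM. All 3 overlapped their controls, with 95% intervals of the log2 difference from -0.77 to 0.63, from -0.56 to 0.93 and from -0.40 to 0.71. Igfbp2 did not overlap, at 0.557, 0.776, 0.497 and 0 FPKM in mutants and 0.844, 0.852 and 1.62 FPKM in controls, but it lay under the level needed for a test. Of all genes tested, 5.68% did not overlap, and 2.2% did so with lower mutants.

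The ligand transcript Igf2 was 88.5, 157, 45.4 and 141 FPKM in these mutants and 53.2, 45.2 and 46.2 FPKM in controls. Mutant library 3 lay among the controls and the other 3 above them (log2 difference 1.001 ± 0.42, limma unadjusted p = 0.0466 and adjusted p = 0.894). H19 was 26.2, 32.4, 14.6 and 26.4 FPKM against 34.8, 26.2 and 27.04 FPKM (-0.27 ± 0.28, adjusted p = 0.898), and the groups overlapped. Its difference ranged from -0.41 to -0.044 when 1 library was left out. The make-up of the libraries varied here as well. The 8 endocrine markers summed to 19859, 14909, 12473 and 10701 FPKM in mutants and 19240, 29079 and 26489 FPKM in controls, overlapping only through library 1 of each group. None of the 8 passed singly (limma, median log2 difference -0.36), and their part in the values above was not tested.

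An interaction term over the 4 H19DMD groups tested whether the effect of the deletion depended on the fraction. None of the 9 genes tested passed (limma), beside 0.0117% of 17105 genes called, and 0 of the 9 and 1087 of all genes had an unadjusted p under 0.05. Igfbp4 came out at -0.73 ± 0.35 on the log2 scale (adjusted p = 0.804) and Igfbp5 at -0.46 ± 0.28 (adjusted p = 0.857). H19 came out at -1.55 ± 0.33 (adjusted p = 0.448) and Igf2 at -0.14 ± 0.47 (adjusted p = 0.979). The median over all genes was -0.11, and -0.005 after median-ratio scaling of the libraries.

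The last comparison asked about non-mesenchymal cells whose neighbouring mesenchyme carried the Igf2 deletion. The deletion could not be checked here, because the mesenchymal libraries of this model were not analysed here. None of the 7 genes tested passed in 3 mutant against 4 control libraries (limma), and 0 had an unadjusted p under 0.05. The background was 0.0631% of 17441 genes called, with 921 at an unadjusted p under 0.05. Libraries of all 10 genes overlapped between genotypes, beside 6.02% of all genes whose libraries did not. The make-up of the libraries differed between genotypes: the 8 acinar markers summed to 29779, 39742, 38530 and 27754 FPKM in controls and 91029, 92860 and 80591 FPKM in mutants, without overlap. None of the 8 passed singly (limma, median log2 difference 1.06). FPKM is relative to the whole library, 6 of the 7 genes tested had a difference below 0, as did 52.9% of all genes, and the part of acinar RNA in these differences was not tested.

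Igf2 was 65.2, 24.97 and 147 FPKM in these mutants and 78.3, 144, 80.2 and 71.5 FPKM in controls, with mutants on both sides of the control range (log2 difference -0.52 ± 0.57, limma adjusted p = 0.924). H19 was 62.3, 49.9 and 144.02 FPKM against 101.4, 123.4, 80.995 and 88.1 FPKM (-0.34 ± 0.37, adjusted p = 0.922). Leaving out 1 library moved the H19 difference over a range of -0.79 to -0.036. For both transcripts mutant library 3 was the highest of all 7.

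Igf2bp1 had the largest difference of the 7, at 0.539, 1.13 and 3.18 FPKM in mutants against 2.50, 2.08, 5.08 and 9.79 FPKM in controls. Mutant library 3 overlapped the controls, and control library 4 lay well above the rest (log2 difference -1.11 ± 0.55, limma adjusted p = 0.919). Igf2bp3 was 13.1, 14.6 and 13.2 FPKM in mutants against 16.7, 12.02, 16.2 and 16.01 FPKM in controls, with a 95% interval from -0.55 to 0.27. Igf2bp2 was 26.0, 13.1 and 32.3 FPKM against 15.8, 44.8, 28.5 and 19.1 FPKM, and both groups were spread over a similar range.

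Igfbp5 was the most even of the binding proteins in these cells, at 13.1, 9.23 and 11.7 FPKM in mutants and 12.99, 12.4, 11.4 and 13.98 FPKM in controls (95% interval from -0.59 to 0.26). Igfbp4 was 8.90, 12.6 and 17.2 FPKM against 5.22, 12.6, 18.0 and 16.5 FPKM. Igfbp7 was 85.8, 42.4 and 128 FPKM against 72.3, 214, 53.3 and 69.3 FPKM, and Igfbp3 3.42, 0.666 and 14.95 FPKM against 2.61, 9.74, 7.69 and 5.48 FPKM. Both were spread so widely that the 95% intervals ran from -1.47 to 1.14 and from -2.28 to 1.32. Igfbp1, Igfbp2 and Igfbp6 were under the level needed for a test.

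**Figure D4:**
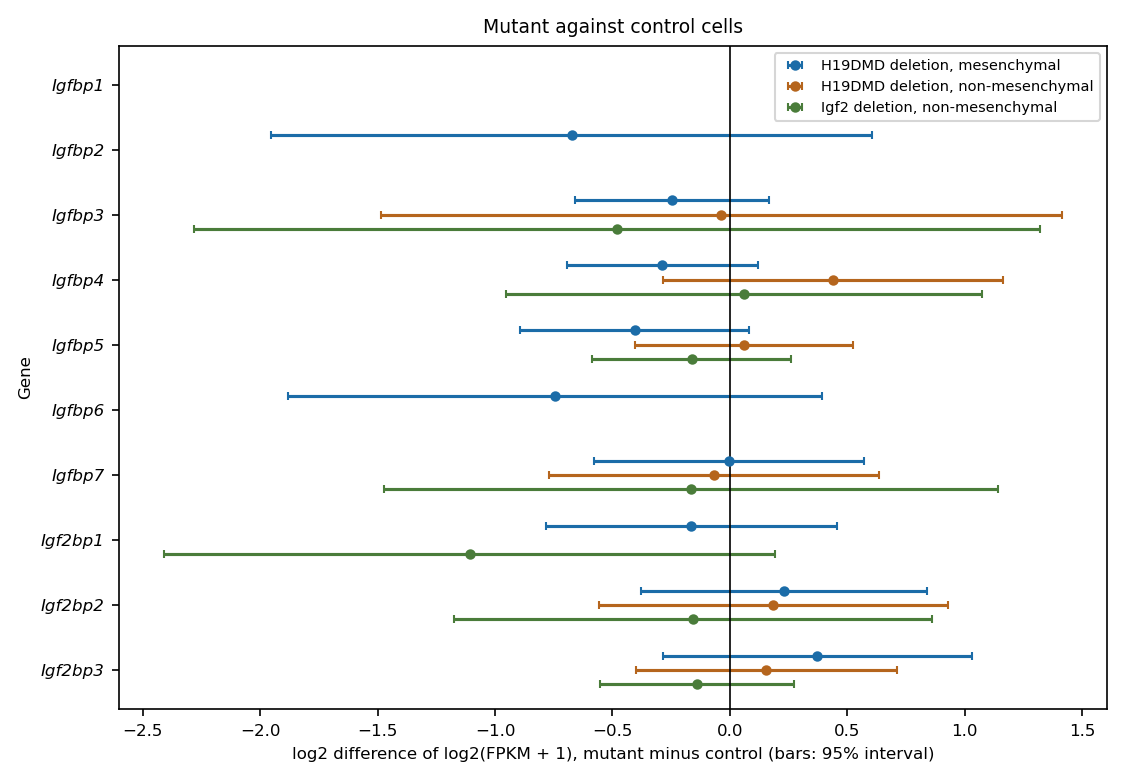
Difference between mutant and control libraries for each gene on the log2(FPKM + 1) scale, with 95% intervals from limma, for mesenchymal and non-mesenchymal cells of the H19DMD model and non-mesenchymal cells of the Igf2 model. Every interval spans 0, and that of Igfbp3 in the Igf2 model, from -2.28 to 1.32, is the widest of that model.

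In the Igf2 model, the libraries highest and lowest in endothelial or mesenchymal markers were in part also the extremes of the binding-protein and RNA-binding-protein genes, a pattern described after the values were seen. The 7 endothelial markers summed to 12.96, 112, 51.8 and 65.3 FPKM in controls and 61.3, 31.0 and 110 FPKM in mutants, and none was at 0 in every library of a group. Control 2 and mutant 3, the highest in these markers, were also the highest of their groups for Igfbp7, Igfbp3 and Igf2bp2. Mutant 2, the lowest mutant in these markers, was the lowest mutant for the same 3 genes. Control 1, the lowest control in these markers, was the lowest control for Igfbp3 and Igf2bp2 but not for Igfbp7. The 10 mesenchymal markers summed to 194, 339.7, 363 and 324 FPKM in controls and 268, 204 and 412 FPKM in mutants. Control 1 and mutant 2, lowest in these, were lowest for Igfbp3, but control 2 and not control 3 was the highest control for that gene. For Igfbp4, control 1 and control 3 were lowest and highest among controls, but mutant 1 and not mutant 2 was the lowest mutant. Mutant 3 was the highest mutant for Igfbp3, Igfbp4 and Igf2bp1, and mutant 2 the lowest for Igfbp5. Among controls, Igf2bp3 was lowest in control 2, and Igf2bp1 and Igfbp5 were highest in control 4. The part of endothelial and mesenchymal RNA in these values was not tested.

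**Figure D5:**
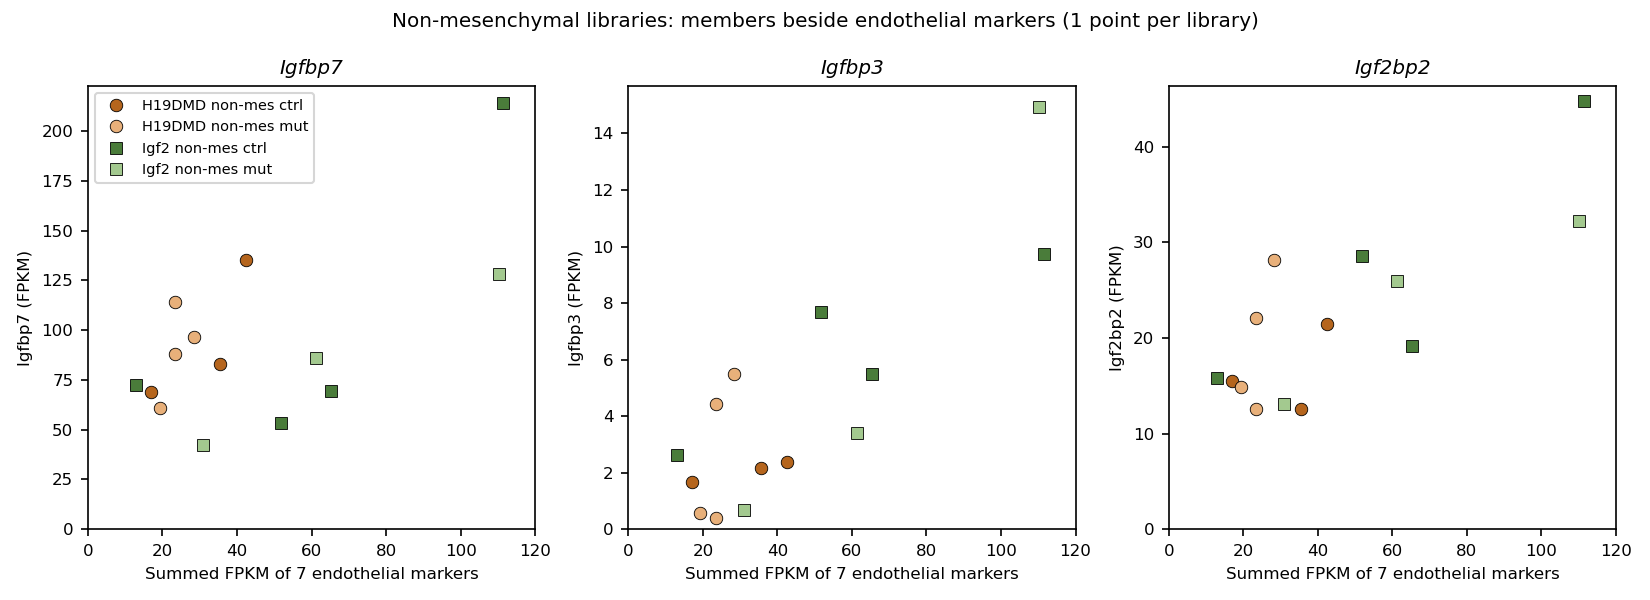
Levels of Igfbp7, Igfbp3 and Igf2bp2 (FPKM) against the summed FPKM of 7 endothelial markers in the 14 non-mesenchymal libraries, 1 point per library. The 2 libraries of the Igf2 model above 100 FPKM of markers hold the highest values of all 3 genes in that model, among them 214 FPKM of Igfbp7 in control 2. In the H19DMD model the marker sums are at most 42.5 FPKM. Igfbp7 there reaches 135 FPKM, above the 128 FPKM of Igf2 model mutant 3. Igfbp3 and Igf2bp2 there reach 5.51 and 28.1 FPKM, below both of these Igf2 model libraries.

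Genes that act with the 2 families were set beside them in the contrast of mesenchymal with non-mesenchymal controls (limma adjusted p under 0.05). Over all genes 22.6% were called, 12.4% higher and 10.3% lower. Of 8 IGF ligands and receptors, 3 were higher in mesenchyme and 2 lower. Igf2 was 79.8-fold higher, Igf1 5.35-fold higher (275 ± 80.5 against 51.3 ± 20.6 FPKM) and Igf2r, which clears IGF2, 3.96-fold higher. The insulin genes Ins1 and Ins2 were lower by log2 differences of -7.81 ± 0.72 and -7.68 ± 0.40. Of 15 genes for IGFBP partners, proteases and protease inhibitors, 11 were tested, 7 were higher and none was lower. C1s, a complement protease that cuts IGFBP5, was highest by fold (log2 difference 6.33 ± 0.42), followed by Mmp2 (5.14 ± 0.18). Pappa, the IGFBP4 protease, singled out after its values were seen, was 10.4 ± 1.74 FPKM in mesenchyme and 0.287 ± 0.235 FPKM outside it.

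Of 10 relatives that carry an IGFBP-type domain, 8 were tested, 4 were higher and none was lower, again beside 12.4% and 10.3% of all genes, shares that also stand beside the next counts. These were Htra1 (4.37 ± 0.42), Nov (4.27 ± 0.28), Wisp1 (2.07 ± 0.32) and Crim1 (1.46 ± 0.26, log2 differences). The 7 partners of IGF2BP proteins in RNA granules were all tested and none passed, with a median of -0.03. Of 6 genes of the LIN28 and let-7 axis, in which let-7 microRNAs repress fetal genes including those of IGF2BP proteins, 3 were tested and all 3 were lower in mesenchyme: Hmga1 (-3.29 ± 0.45), Hmga2 (-2.24 ± 0.26) and Arid3a (-1.62 ± 0.33). The Arid3a call was lost without mesenchymal control 2 or non-mesenchymal control 2 or 3, at adjusted p = 0.0558 to 0.065. Of 5 transcripts known to be bound by IGF2BP proteins, among them the non-coding RNA H19, H19, Igf2 and Cd44 (1.43 ± 0.28) were higher and none was lower. The Cd44 call was lost without mesenchymal control 1, at adjusted p = 0.0509. The list medians were 0.42 for ligands and receptors, 1.12 for partners and proteases, 1.32 for domain relatives, -2.24 for the LIN28 axis and 1.43 for bound transcripts, beside 0.08 over all genes. In the 3 comparisons of mutants with controls, H19 in mesenchyme was the 1 gene of these lists that passed.

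Genes with the pattern most like each member were found over all 21 libraries, by the root mean square difference of log2(FPKM + 1) centred within each table, among 13157 genes. Nearest to Igfbp3 was Ebf3 (0.53), to Igfbp4 Lama2 (0.33), to Igfbp5 Gpc3 (0.27) and to Igfbp7 Kank2 (0.29). For Igfbp3 the next were Cd34 and Mxra8, for Igfbp4 Serpinf1 and Fstl1, for Igfbp5 Igsf10 and Boc, and for Igfbp7 Slc9a3r2 and Smo. Nearest to Igf2bp1 were Vldlr (0.41), Oaf and Atrnl1, to Igf2bp2 Tenm4 (0.27), Thsd1 and Amotl1, and to Igf2bp3 Diablo (0.19), Prkab2 and Gxylt1. Ranking by correlation kept at most 1 of the 3 genes of each member. Igfbp1, Igfbp2 and Igfbp6, with means under 1 FPKM in at least 1 table, were not searched.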

How the data were processed

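RNA was profiled in sorted pancreatic cells of 31 samples, of which 21 had values. Per the labels' protocols, total RNA was whole-transcriptome amplified and sequenced as single-end reads. The authors deposited 1 table of FPKM values per model (per the file headers), and the submitters' processing notes name TopHat2 2.0.8, Cufflinks 2.2.1 and GRCm38. The annotation, strand use and scaling between libraries are not given in the sources used here. Depth is known only in relative terms, spanning 2.17-fold over the H19DMD libraries and 2.79-fold over the Igf2 libraries, so no counting intervals are given. Values of exactly 0, which may be failed estimates, are given as listed at 0. Columns without a sample numbered 0.

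Genes averaging 1 FPKM or more across the compared libraries entered limma 3.58.1 in R 4.3.3 (lmFit and eBayes with trend, two-sided tests) on log2(FPKM + 1), a scale that understates the change of low genes. Only the groups compared entered each fit, p-values were adjusted by Benjamini-Hochberg over all genes tested, and the threshold was 0.05. The fit was tested on simulated data. Intervals are 95% intervals of the fitted difference. Alternatives were a pseudocount of 0.1, no filter, a filter at 5 FPKM, median-ratio scaling, loci of at least 200 bases, other variance models, all groups in 1 fit, a replicate block and leaving out each library.

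The 10 genes were named throughout, and Igf2 and H19 in each comparison of mutants with controls and in the interaction. Of each pathway list, genes past the threshold were named in mutant comparisons, and up to 2 rises and 2 falls in the control fractions. For each gene searched, the 3 nearest genes were named. Genes beyond these in counts of 5 or fewer were named after their values were seen. The members and lists were chosen with earlier results of these data known.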

Additional observations from a re-analysis of the deposited data

Results flagged for a closer look

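In 29 sets of 4 libraries, 1 set per gene and group, the gap from the highest or lowest library to its nearest neighbour was compared with the whole range, and 6 sets passed Dixon's 95% critical value. Chance alone flags about 1 in 20 sets, but that rate does not hold for 3 of the 6, in which every other library was listed at 0 and the gap equals the range by construction.

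In the Igf2 model's non-mesenchymal controls, Igfbp7 was 214 FPKM in library 2, with 72.3 FPKM as the nearest other value. The same library had the lowest Igf2bp3 of its group, 12.02 FPKM with 16.01 FPKM next, and the highest endothelial marker sum of its group, 112 FPKM.

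The other 4 concerned genes near 0. Igfbp1 was 2.21 FPKM in Igf2 model control library 1 and 0.806 FPKM in H19DMD non-mesenchymal mutant library 3, and was listed at 0 in the other 3 libraries of each group. Igfbp6 was 1.22 FPKM in Igf2 model control library 4, with 0.207 FPKM next, and 0.442 FPKM in H19DMD non-mesenchymal mutant library 4, where the others were listed at 0.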

How the results depend on the processing

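The number of the 10 genes called was 6 to 8 in both contrasts of the fractions and 0 in every comparison of mutants with controls and in the interaction, over all 101 alternative fits. In the control contrast it was 6 with the replicate block, where Igfbp2 (adjusted p = 0.0507) and Igf2bp2 (adjusted p = 0.0611) were lost. Correlations of the deviations of same-numbered libraries ran from -0.0666 to 0.0801, under the 0.1 required of every pair, so the numbers were not used to pair the samples. In the fraction contrasts all 7 were positive and 5 of 7 libraries correlated best with their own number, which leaves a weak pairing of the sorted fractions possible. The block moved the count of all genes called from 3785 to 2660 and from 4802 to 4141 in the control and mutant contrasts. In mesenchyme, H19DMD non-mesenchymal and Igf2 non-mesenchymal cells the count under the block went from 11 to 7, 5 and 2. In these comparisons library 4 of the larger group has no partner of the same number. Leaving out that library without a block gave 15, 19 and 23. Under the block the signs of Igfbp7 in mesenchyme (0.11) and Igfbp3 in H19DMD non-mesenchymal cells (0.33) turned, and neither was called. Both values were the same without mutant library 4 and no block, so these turns cannot be put down to the block. H19 in mesenchyme was lost under the block (adjusted p = 0.834), without the filter (0.165) and without the trend (0.0696), and Arid3a in the control contrast under the block (0.0738).

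Median-ratio scaling moved the median of all genes from 0.08 to -0.04 in the control contrast and turned Igfbp7 in mesenchyme to 0.076. A filter at 5 FPKM gave 2448 and 3148 genes called in the contrasts, from fewer genes tested. One fit over all groups gave 5 and 1 called in the H19DMD mesenchymal and non-mesenchymal comparisons. In the interaction, where 2 genes were called, a pseudocount of 0.1 and no filter gave 6 each.

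Leaving out 1 library gave 13 to 27, 14 to 34 and 14 to 37 genes called in these 3 comparisons of mutants with controls, and 2 to 9 in the interaction. Signs of uncalled log2 differences turned over ranges of -0.18 to 0.23 for Igf2bp3 in the control contrast and -0.14 to 0.12 for Igfbp7 in mesenchyme. In H19DMD non-mesenchymal cells the ranges were -0.41 to 0.33 for Igfbp3, -0.051 to 0.26 for Igfbp5, -0.27 to 0.21 for Igfbp7 and -0.0071 to 0.38 for Igf2bp2. In the Igf2 model they were -1.33 to 0.30 for Igfbp3, -0.29 to 0.28 for Igfbp4, -0.52 to 0.26 for Igfbp7, -0.42 to 0.21 for Igf2bp2 and -1.13 to 0.12 for Igf2. The cause was not tested. The mesenchymal comparison of the Igf2 model was not run. Unknown depth limits what can be said of Igfbp1, Igfbp2 and Igfbp6 in non-mesenchymal cells.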
